A study of Mus musculus with 6 samples.

Results

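The interferon-stimulated genes are genes that cells switch on when they sense interferon, and 41 of them were followed in alveolar macrophages (AMs), the resident macrophages of the lung airspaces, with and without the hyaluronan receptor CD44. The 41 genes were taken as a list of gene names and not by any measured value, and each was found among the 24341 genes with an expression value. The AMs came from the bronchoalveolar lavage (BAL) of untreated female C57BL/6 mice aged 6 to 10 weeks. Erythrocytes were lysed and RNA was sequenced in 3 samples of CD44+/+ AMs and 3 samples of CD44-/- AMs. The CD44-/- mice lack CD44 in all cells and not in macrophages alone, each sample was a pool of mice, with pools of unequal size, and the comparison therefore asks whether steady-state interferon-stimulated gene expression differed between the genotypes across pools. Expression is given in FPKM, a fragment count scaled for transcript length and sequencing depth, so levels of different genes can be set side by side.

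Type I interferons (IFN-α and IFN-β) bind the receptor of IFNAR1 and IFNAR2, and the kinases JAK1 and TYK2 then act through STAT2 and IRF9, which belong to a complex that binds the interferon-stimulated response element (ISRE) in promoters. Type II interferon (IFN-γ) signals through IFNGR1 and IFNGR2 to the gamma-activated site (GAS). The induced genes encode sensors of viral nucleic acid, proteins that block translation, entry or release of viruses, the ubiquitin-like modifier ISG15 and GTPases that attack pathogen vacuoles, and AMs are known as a source of type I interferon in virus infection of the lung.

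The promoters of many of the 41 genes held these elements. RefSeq promoter windows of the mouse build GRCm38.p6, from 250 bases before to 50 bases after the transcription start, were at hand for 31 of the genes. No window was used for Dhx58, Zbp1, Oas2, Mx1, Mx2, Usp18, Parp9, Parp14, Rtp4 and Ifi27l2a. The ISRE letters GAAANNGAAA, searched on both strands with overlapping matches counted, were found for 17 of the 31 genes (54.8%), against 3.99% of the 27025 genes with a window. The GAS letters TTCNNNGAA, which read the same way on both strands, were found for 10 of the 31 genes (32.3%), against 9.55% of all genes. Either motif was found for 21 of the 31 genes (67.7%), against 12.9% of all genes. The stretches below are shown for the genes with a motif before the start whose samples of the 2 genotypes did not overlap (Rsad2, Gbp3, Irgm1), for the gene of the highest level (Bst2), for genes with several ISRE matches (Isg15, Ifit1, Ifit3) and for GAS matches (Irf1, Gbp7). They are written 5′ to 3′ on the strand of the gene, given in brackets, with the matched letters in capitals. Capitals that begin with TTTC are ISRE matches on the opposite strand, and runs longer than the motif are overlapping matches.
Rsad2 ISRE at chr12:26456548-26456587 (-): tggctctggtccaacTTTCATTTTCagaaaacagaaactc
Gbp3 ISRE at chr3:142559984-142560029 (+): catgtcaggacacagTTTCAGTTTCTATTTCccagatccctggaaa
Irgm1 ISRE at chr11:48871421-48871465 (-): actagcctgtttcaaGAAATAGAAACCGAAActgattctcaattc
Bst2 ISRE at chr8:71537572-71537617 (-): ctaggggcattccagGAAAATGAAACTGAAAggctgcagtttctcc
Isg15 ISRE at chr4:156200860-156200911 (-): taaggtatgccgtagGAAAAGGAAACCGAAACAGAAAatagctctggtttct
Ifit1 ISRE at chr19:34640770-34640828 (+): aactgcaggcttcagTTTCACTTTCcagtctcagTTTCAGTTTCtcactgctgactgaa
Ifit3 ISRE at chr19:34583358-34583431 (+): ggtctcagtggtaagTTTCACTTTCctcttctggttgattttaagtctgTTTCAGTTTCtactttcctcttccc
Irf1 GAS at chr11:53769909-53769947 (+): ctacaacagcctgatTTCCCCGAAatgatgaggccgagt
Gbp7 GAS at chr3:142530215-142530272 (+): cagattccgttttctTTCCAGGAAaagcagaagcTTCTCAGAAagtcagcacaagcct
A match is a run of letters and not a measured binding site. Counted from the start, the match of Rsad2 began at position -120, the 3 overlapping matches of Isg15 began between -78 and -66, and those of Irgm1 began at -30 and -24.

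The labels of the samples and their cell content were looked at first. The targeted gene, Cd44 (chr2:102811141-102901665), was at 540, 535 and 527 FPKM in CD44+/+ AMs and at 54.7, 54.5 and 51.4 FPKM in CD44-/- AMs (log2 fold change -3.32, limma, adjusted p = 4.19e-09). The 10 AM markers, Siglecf and Marco among them, were detected in every sample, with a summed level of 19420 to 23780 FPKM. Of 6 markers of plasmacytoid dendritic cells, the main interferon producers of blood, 5 were at 0 in at least 1 sample, and the summed level was 2.54 to 3.11 FPKM in CD44+/+ and 2.86 to 3.55 FPKM in CD44-/- AMs. Tcf4 gave most of it, and Cox6a2 was at 0, 0 and 0.197 FPKM in CD44+/+ samples and at 0.342, 0.761 and 0.666 FPKM in CD44-/- samples. Ly6d and Klk1 of the same list had lower means in CD44-/- AMs, of 0.0353 and 0 FPKM against 0.141 and 0.0757 FPKM. Siglech and Ccr9 had higher means in CD44-/- AMs, of 0.0514 and 0.0182 FPKM against 0.00763 and 0.00808 FPKM. Siglech was at 0.0229, 0 and 0 FPKM in CD44+/+ samples and at 0.0463, 0.0838 and 0.0241 FPKM in CD44-/- samples. The 6 markers of monocytes and interstitial macrophages summed to 8.38 to 10.8 FPKM in CD44+/+ AMs and to 12.3 to 13.8 FPKM in CD44-/- AMs, and the 5 alveolar type 2 cell markers summed to 9.44 to 20.0 and 16.4 to 87.3 FPKM. At an unadjusted p under 0.05 there were 2 of the 4 tested markers of the former list (C1qa and C1qc) and 2 of the 3 tested markers of the latter. All were higher in CD44-/- AMs, and 7.69% of all genes tested had such a p in either direction. Ly6c2 of the former list had a lower mean in CD44-/- AMs, of 0.0614 FPKM against 0.167 FPKM. The neutrophil markers summed to 58.6 to 99.4 and 70.2 to 80.6 FPKM, with Csf3r and Mmp8 higher in CD44-/- AMs at this p, while the means of S100a8 (32.4 and 28.4 FPKM), S100a9 (11.7 and 2.77 FPKM) and Retnlg (0.896 and 0.319 FPKM) were lower there than in CD44+/+ AMs. Of the AM markers, Krt79 was lower in CD44-/- AMs at this p. Airway secretory markers summed to 811 to 1333 and 620 to 1044 FPKM, and erythroid markers to 5.62 to 38.3 and 6.26 to 110.5 FPKM, with the highest sum in replicate 2 of each genotype. The part of these cells in the results below was not tested. The sum of the FPKM values was 487901 to 504182 per sample, and relative depth, read from the steps between low values, was 0.812 to 1.05 of that of CD44+/+ replicate 1.

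At steady state the interferon-stimulated genes covered a wide range of levels, which the plot of members by role shows. Averaged over the 6 samples, 17 of the 41 genes reached 10 FPKM and 12 stayed under 1 FPKM. The median level of all genes tested was 12.24 FPKM, and 13 of the 41 lay above it. The upper end was held by Bst2, which encodes tetherin, an inhibitor of virus release, at 44.8 FPKM, the ubiquitin ligase gene Trim25 at 33.4, Ifi35 at 24.6 and the transcription factor gene Irf1 at 24.5 FPKM. The nucleic acid sensors lay together between 10.7 FPKM for Dhx58 and 13.5 FPKM for Ddx58. In contrast, several genes known for strong induction by type I interferon were low, with Ifit1 at 1.10, Ifit3 at 0.902, Rsad2 at 0.811, Usp18 at 0.627, Mx1 at 0.247 and Ifi44 at 0.0537 FPKM. Levels are given here for RNA of whole samples, in which fewer cells that express a gene and less RNA per cell cannot be told apart.

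**Figure D1:**
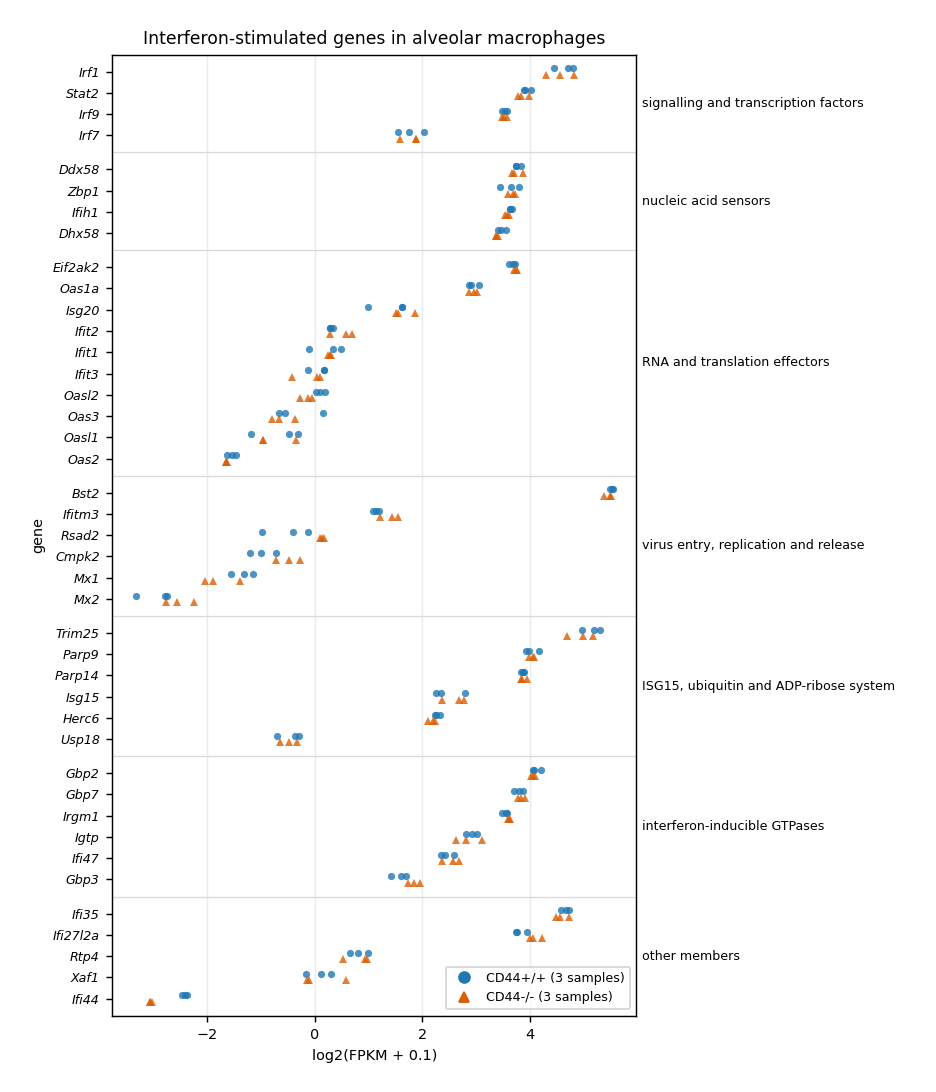
Level of each of the 41 interferon-stimulated genes, grouped by role, on the scale log2(FPKM + 0.1). Each point is a sample (circles, CD44+/+, n = 3; triangles, CD44-/-, n = 3), and for most genes the points of the 2 genotypes overlap, with Rsad2, Gbp3, Ifi27l2a and Ifi44 among the exceptions.

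To compare the genotypes, the 10800 genes that averaged 0.5 FPKM or more were fitted with limma on log2(FPKM + 0.1), with two-sided p-values adjusted over all of them (Benjamini-Hochberg). All fold changes below are CD44-/- over CD44+/+ AMs on this scale, which understates changes of genes with low levels. Of the 41 interferon-stimulated genes, 37 entered the test, and Oas2, Mx1, Mx2 and Ifi44 had lower means. None of the 37 had an adjusted p under 0.05 in limma, where 12 of all genes tested did (0.111%). At an unadjusted p under 0.05 there were 3 members (8.11%), against 7.69% of all genes tested. All 3, Ifi27l2a, Rsad2 and Gbp3, were higher in CD44-/- AMs, where 4.75% of all genes tested were higher at this p, and no member was lower, where 2.94% of all genes were lower. Of all genes at this p, 61.7% were higher in CD44-/- AMs without further scaling and 51.4% after median-ratio scaling.

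The members were spread to both sides of 0. Their median log2 fold change was 0.0054, against 0.013 for all genes tested, and it lay between -0.04 and 0.04 over the alternatives, with both signs. Of the 37 genes, 19 had a positive and 18 a negative value, and 55.81% of all genes tested had a positive value. The median size of the log2 fold change, without its sign, was 0.08 for the members and 0.07 for all genes tested. The values ran from -0.26 for Oasl2 to 0.64 for Rsad2. The 95% interval stayed within a 1.5-fold change in either direction for 28 of the 37 genes, where it did for 86.23% of all genes tested, and within a 2-fold change for 35, as the plot of fold changes shows. The median standard deviation within a genotype was 0.13 on the log2 scale for members and 0.11 for all genes tested.

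**Figure D2:**
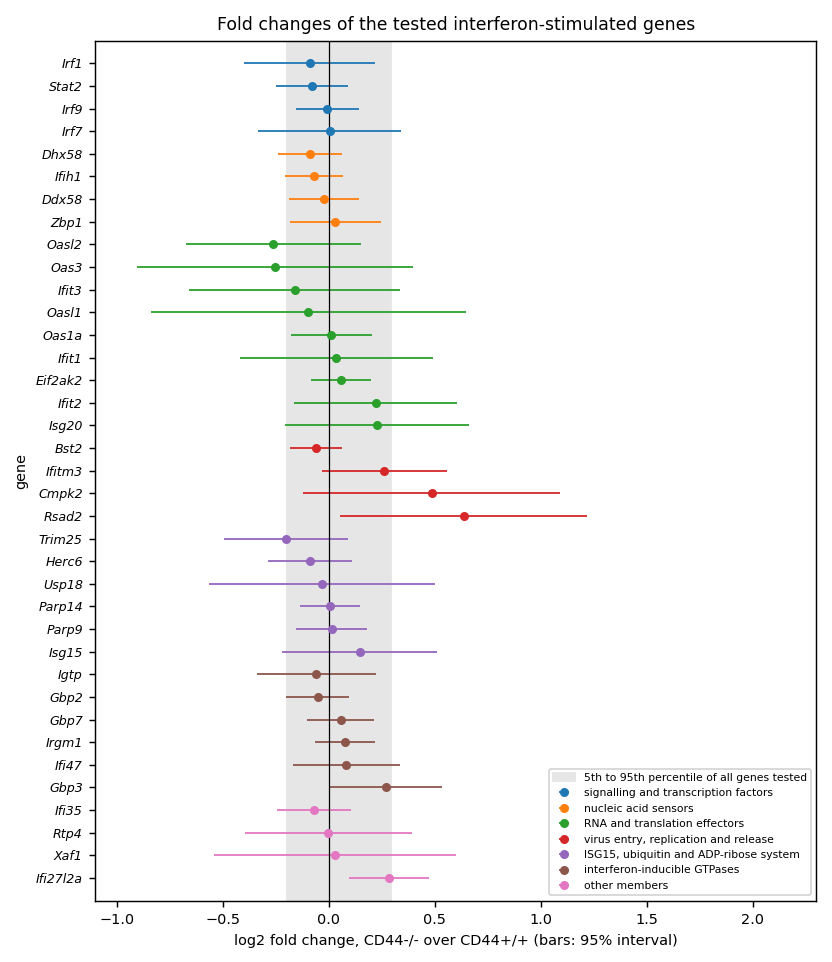
Log2 fold change (CD44-/- over CD44+/+) of the 37 tested interferon-stimulated genes by role, with points for the limma estimate and bars for its 95% interval. The grey band spans the 5th to 95th percentile of all 10800 genes tested, and Rsad2 and Cmpk2 have the highest values, both to the right of the band, while Oasl2, Oas3 and Trim25 lie to its left.

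**Figure D3:**
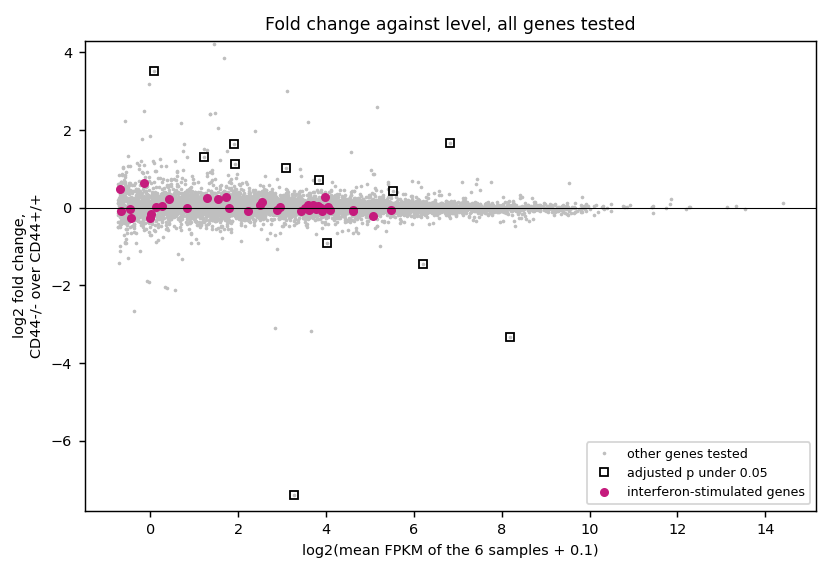
Log2 fold change (CD44-/- over CD44+/+) against the mean level of the 6 samples, on the scale log2(FPKM + 0.1), for all 10800 genes tested. The 37 interferon-stimulated genes (pink) lie within the cloud of other genes (grey), and none of the 12 genes with an adjusted p under 0.05 (open squares) is a member.

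The samples of the 2 genotypes did not overlap for 7 of the 37 members (18.9%), against 11.6% of all genes tested. Ifitm3, Rsad2, Gbp3, Irgm1 and Ifi27l2a were higher in every CD44-/- sample, and Ifih1 and Oasl2 were lower. With 3 samples against 3, the exact two-sided permutation test cannot go below p = 0.1, the value of these 7 genes. With a sample left out, both shares rose, since fewer samples overlap less often. The count of members was 11 (29.7%) without CD44+/+ replicate 2, against 17.4% of all genes tested, and 11 without CD44+/+ replicate 3, against 20.8%. It was 13 (35.1%) without CD44-/- replicate 1, against 23.1% of all genes, and 9 (24.3%) without CD44+/+ replicate 1, against 30.3%.

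Ifi27l2a (chr12:103442167-103443680), which encodes a small interferon-induced membrane protein, had the lowest p of the 37 members tested. Its level was 15.2, 13.5 and 13.3 FPKM in CD44+/+ AMs, compared to 16.6, 16 and 18.6 FPKM in CD44-/- AMs. The highest CD44+/+ sample was close to the lowest CD44-/- sample. The log2 fold change was 0.28 (SE 0.08, limma, adjusted p = 0.409). Its unadjusted p stayed under 0.05 in all 15 alternatives, in which the adjusted p lay between 0.152 and 0.927.

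Rsad2 (chr12:26442746-26456452) encodes viperin, an enzyme that makes a chain-terminating nucleotide, and its ISRE is shown above. Its level was 0.405, 0.822 and 0.651 FPKM in CD44+/+ AMs, compared to 1.0, 1.02 and 0.965 FPKM in CD44-/- AMs. The CD44-/- samples lay close together and above a spread of CD44+/+ samples. The log2 fold change was 0.64 (SE 0.25, limma, adjusted p = 0.598). With a sample left out it lay between 0.40, without CD44+/+ replicate 1, and 0.83. Its unadjusted p was no longer under 0.05 without CD44+/+ replicate 1, without any of the CD44-/- samples, or after quantile normalization, and with a pseudocount of 1 its value was 0.30. Cmpk2 (chr12:26469204-26479837), the neighbour of Rsad2 on the opposite strand, encodes a mitochondrial nucleotide kinase. Cmpk2 was at 0.335, 0.510 and 0.398 FPKM in CD44+/+ samples and at 0.510, 0.618 and 0.729 FPKM in CD44-/- samples, so that the highest CD44+/+ sample equalled the lowest CD44-/- sample. Its log2 fold change was 0.49 (SE 0.27, adjusted p = 0.771).

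The other genes that act on virus entry, replication and release were Ifitm3, Bst2, Mx1 and Mx2. Ifitm3, which blocks fusion of virus with endosomes, had 2.20, 2.09 and 2.01 FPKM in CD44+/+ samples and 2.22, 2.59 and 2.84 FPKM in CD44-/- samples. The lowest CD44-/- sample lay just above the highest CD44+/+ sample, and the log2 fold change was 0.26 (SE 0.13, adjusted p = 0.708). Bst2 was at 45.7 ± 0.755 FPKM in CD44+/+ and 43.9 ± 2.17 FPKM in CD44-/- AMs (mean ± SD, n = 3), a log2 fold change of -0.06 (SE 0.05).

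Among the interferon-inducible GTPases, which act on the membranes of pathogen vacuoles, Gbp3 (chr3:142560026-142573209) had 2.95, 3.15 and 2.57 FPKM in CD44+/+ samples and 3.49, 3.76 and 3.22 FPKM in CD44-/- samples. The gap between the genotypes was smaller than the range within CD44+/+ AMs, and the log2 fold change was 0.27 (SE 0.12, limma, adjusted p = 0.647). Its unadjusted p was not under 0.05 in 8 of the 15 alternatives. These were a higher filter (means from 1 FPKM up), no filter, quantile normalization, robust moderation, and the fits without CD44+/+ replicate 1 or 3 or without CD44-/- replicate 1 or 2. Irgm1, a regulator of the immunity-related GTPases, had 11.8, 11.7 and 11.1 FPKM in CD44+/+ samples and 12, 12.3 and 12.2 FPKM in CD44-/- samples, a log2 fold change of 0.08. The neighbours of Gbp3 on chromosome 3 gave values near 0, with -0.05 for Gbp2 (-0.08 to -0.0031 with a sample left out) and 0.06 for Gbp7 (0.01 to 0.10). For both, the value nearest 0 was that without CD44+/+ replicate 3. Igtp and Ifi47, both on chromosome 11 like Irgm1, had log2 fold changes of -0.06 and 0.08, and that of Ifi47 lay between 0.0088 without CD44-/- replicate 3 and 0.17 without CD44-/- replicate 2.

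No signalling gene passed the test, and the samples of the genotypes overlapped for all 4. Stat2, a subunit of the ISRE-binding complex, was at 15.3 ± 0.70 FPKM in CD44+/+ and 14.5 ± 1.08 FPKM in CD44-/- AMs (mean ± SD, n = 3). Irf9, the DNA-binding subunit, had 11.5 ± 0.416 and 11.4 ± 0.411 FPKM. Irf7, the factor that amplifies IFN-α production, had 3.36 ± 0.572 and 3.36 ± 0.405 FPKM, and Irf1, which IFN-γ induces through a GAS, had 25.2 ± 3.09 and 23.8 ± 4.35 FPKM. The log2 fold changes of the 4 genes lay between -0.09 and 0.01, and their 95% intervals all stayed within a 1.5-fold change.

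The sensors also stayed within a 1.5-fold interval. Ifih1, which encodes the RNA sensor MDA5 and lies on chromosome 2 like Cd44, had 12.5, 12.3 and 12.3 FPKM in CD44+/+ samples and 12.2, 11.7 and 11.5 FPKM in CD44-/- samples. Every CD44-/- sample was lower, by little, and the log2 fold change was -0.07 (SE 0.06, adjusted p = 0.919). Ddx58, which encodes the RNA sensor RIG-I, and Dhx58, its relative LGP2, had log2 fold changes of -0.02 and -0.09. Zbp1, a sensor of Z-form nucleic acid also on chromosome 2, had a log2 fold change of 0.03.

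Of the 10 effectors that act on viral RNA and translation, 5 had a mean under 1 FPKM. Oasl2, of the oligoadenylate synthetase family, had 0.922, 1.04 and 0.972 FPKM in CD44+/+ samples and 0.727, 0.860 and 0.814 FPKM in CD44-/- samples. The genotypes did not overlap, yet the log2 fold change of -0.26 (SE 0.18) had an adjusted p of 0.856 in limma. Its relatives on chromosome 5 gave -0.26 for Oas3 (SE 0.29, and -0.0014 without CD44+/+ replicate 3), -0.10 for Oasl1 (SE 0.33) and 0.01 for Oas1a (SE 0.08). The 3 genes of the IFIT family, which bind viral RNA ends and lie together on chromosome 19, gave 0.04 for Ifit1, 0.22 for Ifit2 and -0.16 for Ifit3, with standard errors of 0.17 to 0.22. The value of Ifit2 lay between 0.13 without CD44-/- replicate 1 and 0.34 without CD44-/- replicate 2. Eif2ak2, the gene of the translation-blocking kinase PKR, was at 12.7 ± 0.458 and 13.2 ± 0.306 FPKM (mean ± SD, n = 3), and the RNA exonuclease gene Isg20 had 2.61 ± 0.625 and 3.03 ± 0.429 FPKM.

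In the ISG15, ubiquitin and ADP-ribose system, Isg15 itself had 5.0, 4.64 and 6.81 FPKM in CD44+/+ samples and 5.05, 6.78 and 6.28 FPKM in CD44-/- samples. The genotypes overlapped over most of their range, with a log2 fold change of 0.15 (SE 0.16, adjusted p = 0.946) that lay between 0.04, without CD44+/+ replicate 2, and 0.31, without CD44+/+ replicate 3. Usp18, whose product removes ISG15 and restrains IFNAR2, had a log2 fold change of -0.03 (SE 0.23), and Herc6, the mouse ISG15 ligase gene, had -0.09 (SE 0.09). Trim25, which ubiquitinates RIG-I, was at 35.6 ± 4.2 and 31.1 ± 5.26 FPKM (mean ± SD, n = 3), with a log2 fold change of -0.20 (SE 0.13). This value lay between -0.32 without CD44-/- replicate 1, where its unadjusted p was under 0.05, and -0.07 without CD44-/- replicate 3. The ADP-ribosyltransferase genes Parp9 and Parp14, on chromosome 16, had log2 fold changes of 0.01 each. Of the remaining genes, Ifi35, Rtp4 and Xaf1 had log2 fold changes of -0.07, -0.0019 and 0.03.

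Ifi44 and Mx2 were low enough to be read as steps of the smallest fragment count. Ifi44 (chr3:151730922-151749960), an interferon-induced cytoplasmic protein gene, had 0.0926, 0.0804 and 0.0878 FPKM in CD44+/+ samples and 0.0188, 0.0227 and 0.0196 FPKM in CD44-/- samples. Corrected for relative depth, these values were 5, 4 and 5 times and 1, 1 and 1 times the lowest value, each within 0.042 of a whole number. If the lowest value is 1 fragment, 14 fragments stood against 3, a ratio of 0.232 with a 95% exact interval of 0.0428 to 0.833 that covers counting error only. Without a filter on low values, limma gave Ifi44 an unadjusted p under 0.05 and an adjusted p of 0.275, below that of Ifi27l2a in the same fit. For Mx2, a GTPase gene that is defective in many laboratory strains like Mx1, a step was taken as the lowest corrected value above 0 divided by 2. Mx2 was at 2, 2 and 0 steps in CD44+/+ samples and 3, 4 and 2 steps in CD44-/- samples. The ratio was 2.44, with a 95% interval of 0.681 to 10.8 if such a step is 1 fragment. Mx1 had 0.349, 0.240 and 0.299 FPKM in CD44+/+ samples and 0.281, 0.169 and 0.143 FPKM in CD44-/- samples, with an adjusted p of 0.778 without a filter. Oas2 had 0.246, 0.223 and 0.260 FPKM against 0.222, 0.219 and 0.218 FPKM, and its adjusted p was 0.926.

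Across the 37 tested genes together, the samples lay close to each other. The mean of the log2 values, each gene centred on its own mean, was -0.08, -0.01 and 0.04 in the CD44+/+ samples, compared to 0.04, -0.02 and 0.03 in the CD44-/- samples, both in the order of their numbers. By this mean CD44+/+ replicate 1 was the lowest, whereas by the median of the centred values, at -0.01 in CD44+/+ replicate 1, CD44-/- replicate 2 was the lowest at -0.05. The genotypes overlapped, with -0.02 ± 0.06 and 0.02 ± 0.03 (SD, n = 3). Over all 10800 genes tested, the centred mean was 0.03, -0.02 and -0.05 in the CD44+/+ samples. It was 0.02, 0.02 and -0.0036 in the CD44-/- samples, so that CD44+/+ replicate 1 was the highest there and CD44+/+ replicate 3 the lowest. The low mean of the members in CD44+/+ replicate 1 came with Rsad2, Cmpk2, Isg20, Oasl1 and Ifit1, as the heat map of the samples shows. It did not come with Irf1, Stat2 or Trim25, which were at or above their means in that sample. The 17 genes with an ISRE match had a median level of 7.64 FPKM and a median log2 fold change of 0.01, with 2 genes at an unadjusted p under 0.05 (11.8%, against 7.69% of all genes tested). The 14 genes with a window and no match had a median level of 3.09 FPKM, and the 13 of them that were tested had a median of -0.01 on the log2 scale, with 0 genes at this p, and counts this small do not set the sets apart from each other or from the background.

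**Figure D4:**
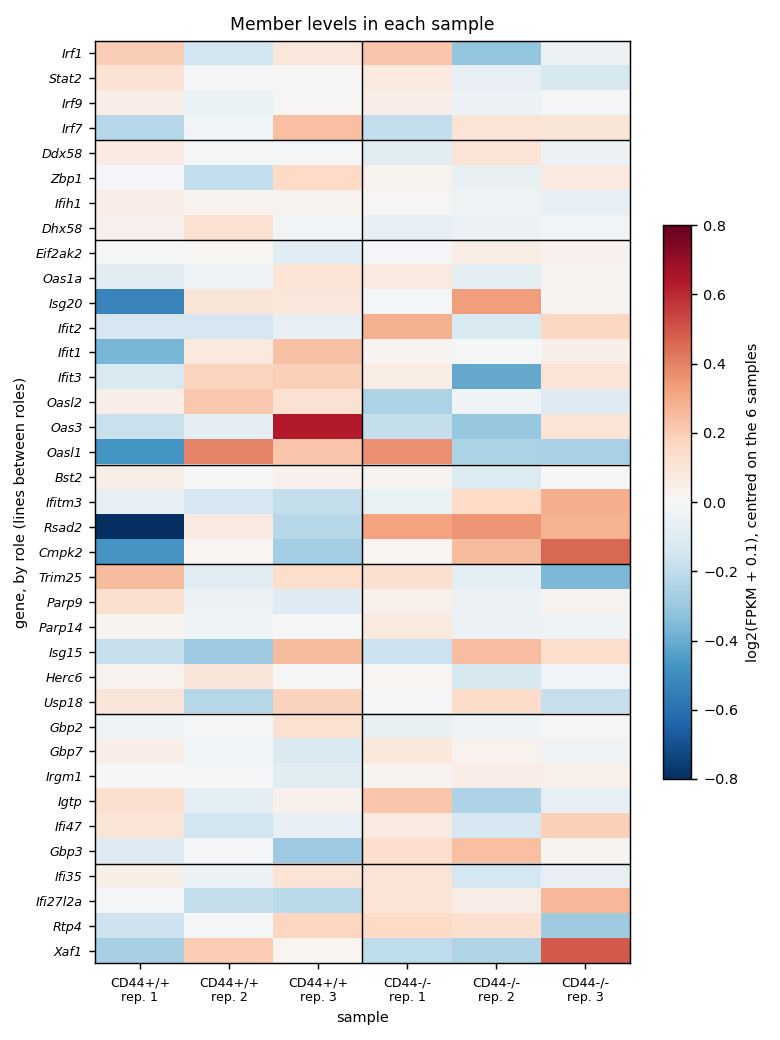
Level of the 37 tested interferon-stimulated genes in each sample, as log2(FPKM + 0.1) centred on the mean of the 6 samples (red, higher; blue, lower). Rows are genes grouped by role, columns are samples, and the darkest cells, such as Rsad2 in CD44+/+ replicate 1 and Oas3 in CD44+/+ replicate 3, belong to genes with low levels.

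The pathway above these genes was read from 48 further genes. Of 12 interferon genes, 10 were listed at 0 in all 6 samples. Ifnk was at 0.0955 FPKM in CD44-/- replicate 2 alone, and Ifng was at 0.0504 FPKM in CD44+/+ replicate 1 alone. The receptor chains for type I and type II interferon were expressed in all samples, as the plot of pathway genes shows. Ifnar1 was at 9.03 ± 0.230 FPKM in CD44+/+ and 9.37 ± 0.192 FPKM in CD44-/- AMs (mean ± SD, n = 3), and Ifnar2 had 42.4 ± 2.99 and 45.4 ± 1.28 FPKM. The receptor chains for IFN-γ had 104 ± 9.09 and 115 ± 8.62 FPKM for Ifngr1 and 44.6 ± 0.872 and 44.9 ± 1.76 FPKM for Ifngr2. Ifngr1 was higher in the CD44-/- sample of each replicate number, at 114, 96.5 and 101 FPKM against 124, 107 and 113 FPKM, with a log2 fold change of 0.14 (SE 0.08, adjusted p = 0.761). This value lay between 0.09 without CD44-/- replicate 1 and 0.21 without CD44+/+ replicate 1, where the unadjusted p was under 0.05. With the replicate number as a block its unadjusted p was under 0.05 and its adjusted p was 0.35. Ifnlr1, the IFN-λ receptor chain, named after its values were seen, was too low for the test, at 0.131, 0.143 and 0.163 FPKM in CD44+/+ samples and 0.0932, 0.130 and 0.0978 FPKM in CD44-/- samples. The kinase gene Jak1 had a mean of 62.6 FPKM over the 6 samples, and Tyk2 had 26.5 FPKM. Of the interferon regulatory factors outside the list, Irf8, the factor of the myeloid lineage, had 46.4 FPKM, Irf2 had 45.2, Irf5 had 40.5, Irf3 had 21.8 and Irf4 had 2.42 FPKM.

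Of the 48 pathway genes 33 were tested, none had an adjusted p under 0.05 in limma, and 2 had an unadjusted p under 0.05 (6.06%, against 7.69% of all genes tested), 1 in each direction. With the replicate block there were 3 (9.09%, against 9.71% of all genes), Ifngr1 being the third. Socs1 and Samhd1 both belong to the inhibitors of interferon signalling or induction. Socs1, a feedback inhibitor of the JAK kinases, had 0.877, 0.580 and 0.229 FPKM in CD44+/+ samples and 1.34, 1.66 and 0.928 FPKM in CD44-/- samples. The genotypes did not overlap, and the log2 fold change was 1.19 (SE 0.40, adjusted p = 0.486). It lay between 0.76, without CD44+/+ replicate 3, and 1.54, without CD44+/+ replicate 1, and was 0.57 with a pseudocount of 1. Without CD44-/- replicate 2 its unadjusted p was not under 0.05. Samhd1, a nucleotide hydrolase gene on chromosome 2, had 119, 119 and 119 FPKM in CD44+/+ samples and 111, 107 and 105 FPKM in CD44-/- samples. Its log2 fold change was -0.15 (SE 0.04, adjusted p = 0.427). The receptor gene Il10rb, shared by IL-10 and IFN-λ, was the third by p without the block, with a log2 fold change of 0.11 (SE 0.05, adjusted p = 0.708).

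**Figure D5:**
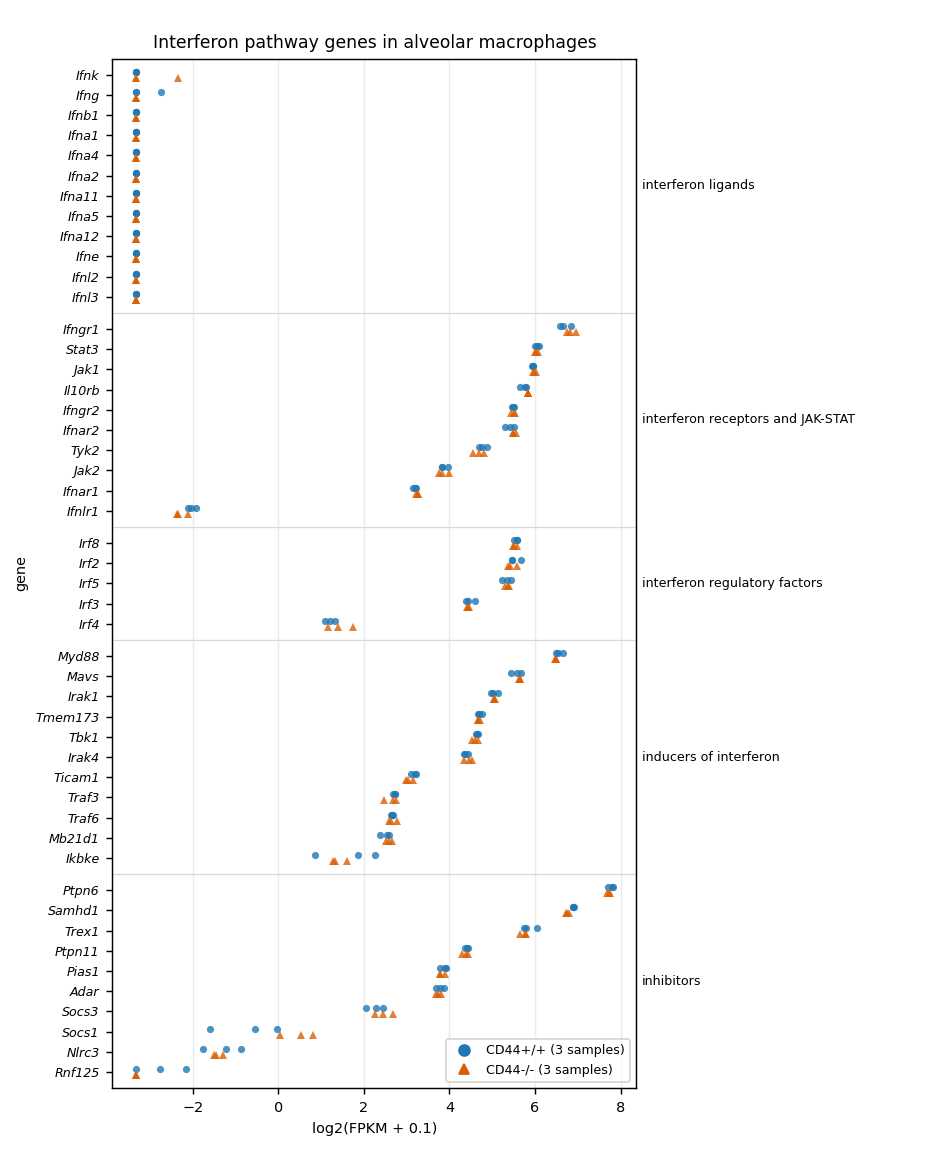
Level of 48 other genes of the interferon pathway by role, on the scale log2(FPKM + 0.1), with a point per sample (circles, CD44+/+, n = 3; triangles, CD44-/-, n = 3). Interferon genes sit at the value for 0 FPKM except for 1 sample each of Ifnk and Ifng, while the receptor chains for type I and type II interferon and the kinase genes are expressed in all samples and Ifnlr1 is low.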

How the data were processed

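RNAseq was performed on BAL AMs of CD44+/+ and CD44-/- female mice in 3 samples per genotype, grouped and numbered by the labels of the samples. The authors aligned the reads to mm10 with STAR and deposited Cufflinks FPKM values, which are scaled for depth and length. The deposited table also holds the Cuffdiff comparison of the authors, which was not used. Its gene name and position columns follow another order than its identifiers, so values were matched by identifier and gene positions were taken from GENCODE vM21 (GRCm38). Of the identifiers, 101 hold several joined names, and Rapgef6, which lacks a value, was left out. The number of reads is not given in the sources used here, which leaves absolute depth unknown.

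Genes that averaged 0.5 FPKM or more were compared on log2(FPKM + 0.1) in R 4.3.3 with limma 3.58.1 (lmFit, then eBayes with a trend on intensity; two-sided p-values, adjusted by Benjamini-Hochberg across the genes tested), and the script was tested on simulated data. The members, lists, tests and alternatives were chosen with earlier results of these data known. Genes named were all members, Cd44, interferon receptor chains, Jak1, Tyk2, regulatory factors, interferon genes above 0 and the 5 non-members of the pathway and interferon-induced lists with the lowest p. Single cell-type markers, Ifnlr1, Ly6e, Lgals3bp and Cxcl10 were named after their values were seen, and values of some other genes are not reported here. Deviations of same-numbered samples from their group means correlated across genes (r = 0.212, 0.132 and 0.211 for replicates 1, 2 and 3), so the numbers were taken to pair the samples in an alternative fit with a replicate block. Across the 37 members tested these correlations were only 0.14, 0.0108 and 0.0586, and CD44+/+ replicate 2 with CD44-/- replicate 3 had 0.0887. The labels do not say that separate collections were made, and p-values measure the spread between these pools. Other alternatives were pseudocounts of 1 and 0.01, no filter or a minimum mean of 1 FPKM, quantile normalization, median-ratio scaling, robust eBayes, eBayes without the trend, and leaving out each sample.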

Additional observations from a re-analysis of the deposited data

How the results depend on the processing

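No member had an adjusted p under 0.05 in any of 15 alternatives, and the lowest was 0.152. Of 547 values of members under alternatives, 506 kept their sign and 41, of 15 members, changed it, all with a log2 fold change of at most 0.16 in size. The count of members at an unadjusted p under 0.05 was 1 (3.45%, against 7.54% of all genes tested) with a mean of at least 1 FPKM, 1 (2.70%, against 8.34%) after quantile normalization and 6 (16.2%, against 7.78%) with no trend. It was 1 to 3 when a sample was left out, with 1 (2.70%) without CD44+/+ replicate 1, against 12.5% of all genes, and 1 without CD44-/- replicate 2, against 5.19%. Members without overlap numbered 9 to 13 (24.3% to 35.1%) when a sample was left out, against 17.4% to 30.3% of all genes. For the pathway genes the count at this p was 1 (3.12%, against 7.54%) under the 1 FPKM filter, and 1 to 6 with a sample left out. It was 6 (18.2%, against 12.5%) without CD44+/+ replicate 1, and 1 (3.03%, against 5.19%) without CD44-/- replicate 2. For the other interferon-induced genes it was 4 (11.8%, against 7.78%) with no trend and 1 to 3 (2.94% to 8.82%, against 4.99% to 12.5%) with a sample left out, with 3 without CD44+/+ replicate 1 (8.82%, against 12.5%) and without CD44-/- replicate 3 (8.82%, against 5.34%). Genes called over the whole table numbered 7 with no filter and 6 to 36 with a sample left out. With the replicate block, 0 members were called, 3 (8.11%, against 9.71% of all genes) had an unadjusted p under 0.05 and 9 genes were called in all, and the block changed no call of a member. The cause of these shifts was not tested, except that fewer samples overlap less often.

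The log2 fold change of Rtp4 turned to 0.0005 with a pseudocount of 1. Median-ratio scaling turned that of Irf7 to -0.0113, Oas1a to -0.0044, Parp9 to -0.0025, Parp14 to -0.0112, Ifngr2 to -0.0079 and Irf5 to -0.0066. Quantile normalization turned that of Irf7 to -0.0382, Ifit1 to -0.0441, Oas1a to -0.0218, Parp14 to -0.0103 and Xaf1 to -0.0528. With a sample left out, log2 fold changes lay between -0.0345 and 0.0171 for Irf9, -0.1086 and 0.1281 for Irf7, -0.0829 and 0.0176 for Ddx58, -0.1386 and 0.1619 for Ifit1, -0.0293 and 0.0716 for Oas1a, -0.1559 and 0.0505 for Usp18, -0.2076 and 0.1562 for Xaf1, -0.0118 and 0.0415 for Ifngr2, -0.0807 and 0.0355 for Irf3, -0.0398 and 0.0592 for Irf5, -0.0585 and 0.1185 for Zbp1, -0.3581 and 0.0776 for Oasl1, -0.0325 and 0.0807 for Parp9, -0.0331 and 0.0301 for Parp14, -0.0838 and 0.1414 for Rtp4, -0.2213 and 0.0416 for Irf1, -0.2617 and 0.0052 for Ifit3, and -0.1851 and 0.0515 for Igtp. They kept their sign but moved by over 1.5 times for Stat2 (-0.1369 to -0.034), Eif2ak2 (0.0308 to 0.0818), Isg20 (0.0182 to 0.3322), Dhx58 (-0.1209 to -0.0497), Bst2 (-0.0869 to -0.019), Herc6 (-0.1179 to -0.0458), Ifi35 (-0.1391 to -0.0173), Irgm1 (0.0498 to 0.0935) and Il10rb (0.0649 to 0.136), and for genes whose range is given beside their values. The unknown depth gives no counting error for most genes, and it limits the 12 members under 1 FPKM most.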

Other observations

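Interferon-induced genes outside the 41 were counted in the same way. Of 40 such genes, 34 were tested, none had an adjusted p under 0.05 in limma, and 2 had an unadjusted p under 0.05 (5.88%, against 7.69% of all genes tested). Of those tested, the same 2 were the ones whose samples did not overlap (5.88%), against 11.6% of all genes. Pml, which organises nuclear bodies, had 3.21, 3.03 and 3.58 FPKM in CD44+/+ samples and 4.50, 3.85 and 4.04 FPKM in CD44-/- samples, a log2 fold change of 0.33 (SE 0.11, adjusted p = 0.484). The genotypes did not overlap. Ifi204, of the family of DNA-binding PYHIN proteins, had 9.52, 7.85 and 9.16 FPKM against 7.48, 6.91 and 7.56 FPKM, also without overlap, a log2 fold change of -0.27 (SE 0.09, adjusted p = 0.501). On average 14 genes of the list reached 10 FPKM and 12 stayed under 1 FPKM. Named after their values were seen, Ly6e and Lgals3bp were the highest, with means of 198 and 130 FPKM over the 6 samples, and neither differed by more than the spread of the samples (196 ± 19.4 and 201 ± 11.8 FPKM for Ly6e, 127 ± 5.51 and 132 ± 4.93 FPKM for Lgals3bp, CD44+/+ and CD44-/-, SD, n = 3). The interferon-induced chemokine gene Cxcl10, also named after its values were seen, had 1.91 ± 0.626 and 1.88 ± 0.569 FPKM.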
